A study of Rattus norvegicus with 16 samples.

Results

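Matrix-binding integrins are the adhesion receptors through which a cell holds on to collagen, laminin, fibronectin and other proteins of its surroundings. This account covers 10 rat genes of that kind, chosen by symbol, namely the alpha subunits Itga1, Itga3, Itga5, Itga6, Itga7, Itga8 and Itgav and the beta subunits Itgb1, Itgb4 and Itgb8. Probes were taken where the gene name in the scanner files equalled a member's symbol, with older synonyms accepted. That gave 10 probes for 8 of the 10 genes, out of 30367 probes for 26207 genes. Itga3 and Itgav had no probe by this rule and were not analysed here. All 8 measured members were among the 20571 genes tested.

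RNA came from olfactory mucosa cultures of male Fischer rats, sorted by flow cytometry into the populations named below, with 4 biological replicates each and 1 single-colour Agilent array per replicate. TRKA-TGF cells are TRKA cells whose cultures were conditioned with TGF-alpha, an EGF receptor ligand. TRKA cells, CD90 cells (Thy1 encodes CD90, a surface glycoprotein) and p75 cells (Ngfr encodes p75, a neurotrophin receptor) shared one culture protocol without that conditioning. The replicates are described as biological, and nothing in the labels ties samples with equal numbers to one animal or culture. Levels are log2 signals minus the same array's 75th percentile, so that 0 is that percentile, and a difference is the first population named minus the second. Differences were tested with limma over all genes, and a gene was called at a Benjamini-Hochberg adjusted p under 0.05.

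An integrin works as a pair of 1 alpha and 1 beta subunit. The beta1 chain encoded by Itgb1 pairs with every alpha chain listed here, beta4 pairs with alpha6 alone, and beta8 with alphav alone. Alpha1 beta1 binds collagen IV and laminin, alpha3, alpha6 and alpha7 with beta1 bind laminins, alpha5 beta1 is the classical fibronectin receptor, and alpha8 beta1 binds nephronectin and other ligands with an RGD motif. In peripheral nerve, Schwann cells carry alpha6 beta1, alpha7 beta1 and alpha6 beta4 against the laminin of their basal lamina. Olfactory ensheathing glia, commonly isolated from this tissue by p75, are close relatives of Schwann cells.

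Every value below is the brightness of a 60-base oligonucleotide, so the probes whose signals carry the main differences are shown first, 5′ to 3′. They are the probes of Itgb1, Itga1, Itga6, Itga7, Itga8 and Itgb8 that represent their gene. Coordinates follow the array design and its build, rn4, and all lie on the minus strand except those of Itga6 and Itga7. Exon annotation of rn4 was not used here. The Itga1 probe covers 4146 bases of the genome with its 60 bases, and each of the others covers 60.
Itgb1 probe, chr19:58611137-58611196: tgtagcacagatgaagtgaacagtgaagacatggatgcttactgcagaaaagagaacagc
Itga1 probe, chr2:47107893-47112038: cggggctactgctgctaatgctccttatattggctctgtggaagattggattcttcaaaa
Itga6 probe, chr3:54263800-54263859: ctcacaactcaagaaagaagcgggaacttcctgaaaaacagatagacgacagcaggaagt
Itga7 probe, chr7:2264646-2264705: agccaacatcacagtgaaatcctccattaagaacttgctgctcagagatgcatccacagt
Itga8 probe, chr17:86532664-86532723: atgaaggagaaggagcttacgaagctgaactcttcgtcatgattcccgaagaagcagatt
Itgb8 probe, chr6:146494978-146495037: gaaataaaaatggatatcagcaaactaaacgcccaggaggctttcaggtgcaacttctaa

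The TRKA arrays stood apart in brightness. Between 51.4 and 57.5% of their spots were well above background, against 66.4 to 70.6% on TRKA-TGF, 70.7 to 72.4% on CD90 and 68.5 to 71.2% on p75 arrays. Replicates correlated at r = 0.74 to 0.76 in TRKA and at 0.84 to 0.91 in the other populations (Pearson, across all genes tested). The p75 and TRKA arrays lay on one slide and the TRKA-TGF and CD90 arrays on another, each with its own scan. TRKA versus p75 is thus a comparison within a slide, as is TRKA-TGF versus CD90, although each population lay in its own row of the slide, so that row and population cannot be told apart. In the other 4 comparisons slide and population cannot be told apart. Thy1 was highest in CD90 cells (3.44 ± 0.29, SD, n = 4) and Ngfr in p75 cells (3.16 ± 0.24), which bears on the CD90 and p75 labels and not on the TRKA label. Ngfr was not well above background on any TRKA array. Several of 7 lists of cell type markers separated populations, as summed linear signal in units of each array's 75th percentile. The glia list holds Ngfr and the fibroblast list Thy1, genes of sort markers, which are no independent evidence of that separation. The 12 macrophage markers summed to 267 to 279 in TRKA-TGF, 579 to 790 in TRKA, 26.0 to 44.9 in CD90 and 6.54 to 15.2 in p75 cells. The 12 ensheathing and Schwann glia markers summed to 2.63 to 3.06 in TRKA-TGF, 0.393 to 1.11 in TRKA, 4.28 to 5.56 in CD90 and 113 to 121 in p75 cells. For the 10 fibroblast markers the sums were 4.38 to 15.2 in TRKA-TGF and 105 to 144 in TRKA cells. They were 442 to 509 in CD90 and 189 to 205 in p75 cells. Col1a1 of that list alone averaged a log2 level of 6.89 in TRKA cells. Of the 10, 6 to 7 were well above background on TRKA-TGF and 3 to 6 on TRKA arrays. All 10 were on CD90 arrays, and 8 to 9 on p75 arrays. The 8 smooth muscle markers summed to 1.21 to 5.95, 1.65 to 9.85, 105 to 118 and 19.7 to 25.5 in the same order. Epithelial markers, for the cells that use alpha6 beta4 most, summed to at most 2.01 on any array, and Trp63 of that list was not analysed here. Endothelial markers summed to at most 1.17 on any array. Olfactory neuron markers summed to 5.27 to 8.60 in p75 cells, and to at most 1.32 in TRKA-TGF, 0.717 in TRKA and 2.39 in CD90 cells.

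Itgb1 encodes the common beta1 partner and was bright on all 16 arrays. Its level was 3.46, 3.36, 3.38 and 3.22 in TRKA-TGF replicates 1 to 4, then 3.55, 3.93, 3.67 and 4.18 in TRKA, 4.38, 4.51, 4.39 and 4.70 in CD90, and 4.02, 3.90, 3.92 and 3.91 in p75 cells. All 4 CD90 arrays lay above every other array and all 4 TRKA-TGF arrays below every other array, within a span of less than 1.5 on the log2 scale. On this probe and under percentile scaling, the order of the means was CD90, p75, TRKA and TRKA-TGF, and no pair of neighbours in that order was called. Itgb1 was lower in TRKA-TGF than in CD90 cells (difference −1.14, SE 0.20, adjusted p = 0.00119, limma) and lower in TRKA than in CD90 cells (−0.66, SE 0.20, adjusted p = 0.0193). In bulk RNA, fewer cells carrying a transcript and less of it per cell cannot be told apart, here and for the other members.

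The Itgb1 result depended on the probe and on the scaling. A second, dimmer Itgb1 probe read 3.45 ± 0.07 in TRKA-TGF, 3.47 ± 0.34 in TRKA, 4.01 ± 0.04 in CD90 and 3.86 ± 0.09 in p75 cells (SD, n = 4 each). With that probe in place of the brighter one, TRKA-TGF versus CD90 was −0.55 (adjusted p = 0.0943) and TRKA versus CD90 −0.54 (adjusted p = 0.0557), neither called. TRKA versus p75 cells differed by −0.10 (95% interval −0.53 to 0.33, adjusted p = 0.721), but by −0.98 and with a call (adjusted p = 0.00119) after quantile normalization. Quantile normalization moved the median difference of all genes in that comparison to 0.24, from −0.01 under percentile scaling, and normexp background correction moved it to 0.37. Without CD90 replicate 4 the call in TRKA versus CD90 was lost (−0.59, adjusted p = 0.0569), as it was with only these 2 populations in the fit (adjusted p = 0.127). Other settings added calls. CD90 versus p75 was called after quantile normalization (adjusted p = 0.0427) and with a mean-variance trend (adjusted p = 0.00961). TRKA-TGF versus TRKA was −0.48 and was called with that trend (adjusted p = 0.00987). The same difference turned to 0.30 after quantile normalization (adjusted p = 0.254) and with the authors' deposited values (adjusted p = 0.255), so TRKA-TGF was not the lowest there. On the dimmer probe, TRKA replicates 1 and 3 (3.21 and 3.18) lay below every TRKA-TGF array. TRKA-TGF versus p75 was called after quantile normalization (−0.68, adjusted p = 0.0253) and normexp correction (−0.61, adjusted p = 0.0162).

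**Figure D1:**
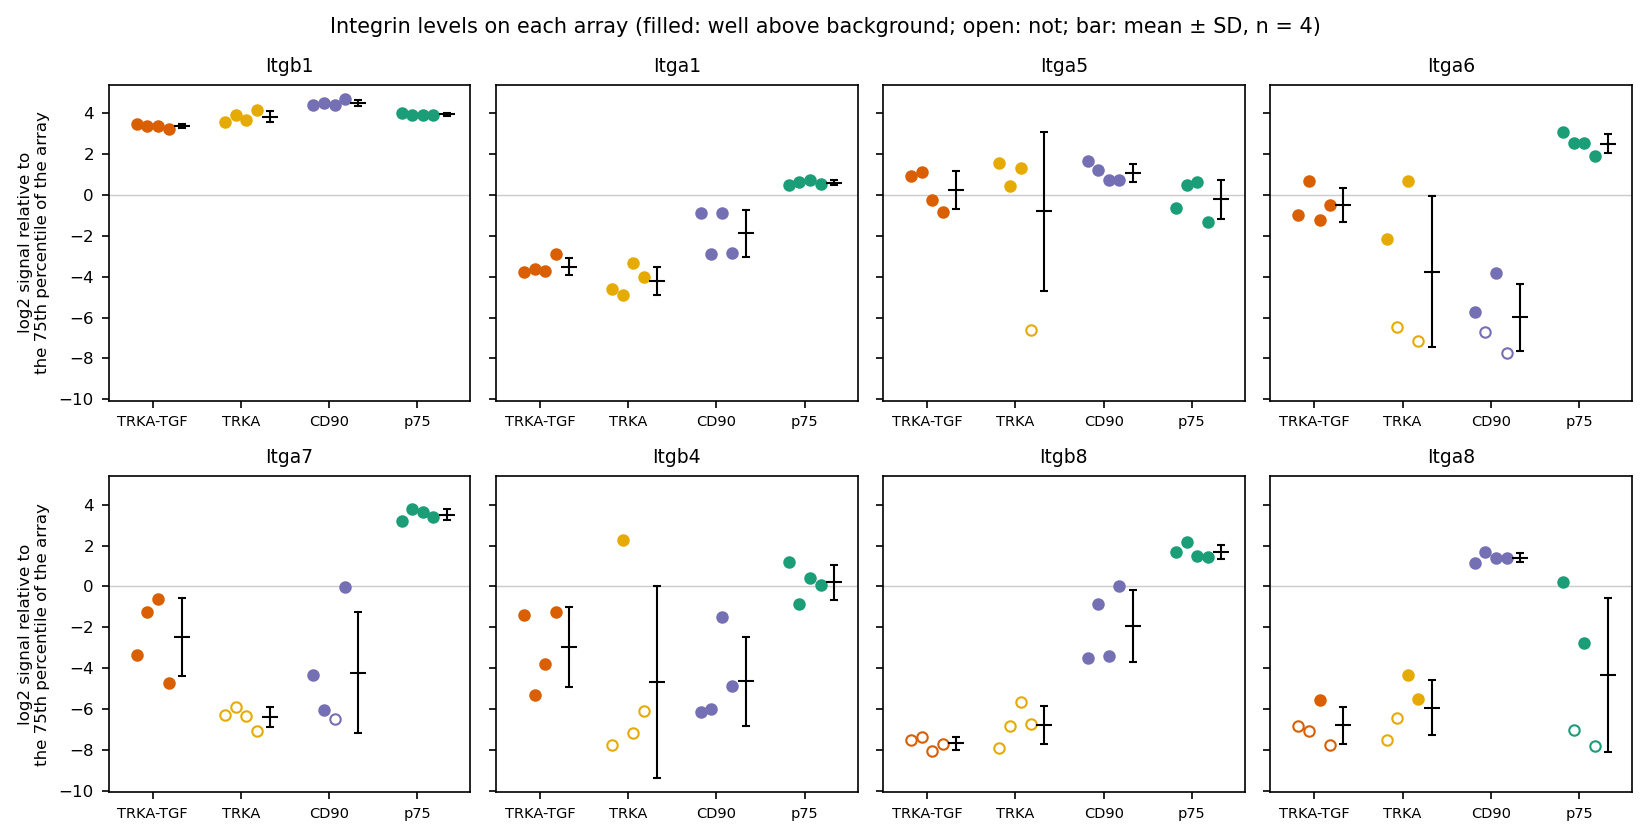
Level of each measured integrin on every array, as log2 signal minus the array's 75th percentile, with 4 arrays per population (filled points well above background, open points not, bars mean ± SD). Itga1, Itga6, Itga7 and Itgb8 are highest in p75 cells, Itga8 in CD90 cells, and Itgb1 stays between 3.22 and 4.70 on all arrays.

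Itga1 encodes the collagen-binding alpha1 chain. It read −3.77, −3.61, −3.75 and −2.90 in TRKA-TGF, −4.62, −4.88, −3.35 and −4.01 in TRKA, −0.89, −2.91, −0.88 and −2.82 in CD90, and 0.49, 0.65, 0.72 and 0.51 in p75 cells, well above background on all 16 arrays. The p75 arrays lay close together and above all others, and the CD90 arrays fell into a higher and a lower pair. Against p75 cells, Itga1 was lower in TRKA-TGF (difference −4.10, SE 0.49, adjusted p = 4.61e-05), TRKA (−4.81, adjusted p = 5.17e-06) and CD90 cells (−2.47, adjusted p = 0.00582). TRKA cells were also below CD90 cells (−2.34, adjusted p = 0.00205), a call lost under quantile normalization (−0.79, adjusted p = 0.218). TRKA-TGF cells were below CD90 cells as well (−1.63, adjusted p = 0.0395), with overlapping arrays. That call was lost without CD90 replicate 1 (−1.30, adjusted p = 0.122), without CD90 replicate 3 (−1.30, adjusted p = 0.121) and without TRKA-TGF replicate 1, 2 or 3 (adjusted p = 0.0876 to 0.0972), and it missed the threshold without any single p75 array (adjusted p = 0.0508 to 0.0524). The 2 TRKA populations were not called apart (0.71, 95% interval −0.35 to 1.77). After quantile normalization that difference was −0.98, also without a call (adjusted p = 0.148).

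Of the laminin receptor genes, Itga7 encodes alpha7, known from muscle and Schwann cells. It read −3.34, −1.23, −0.61 and −4.70 in TRKA-TGF, −6.30, −5.89, −6.34 and −7.05 in TRKA, −4.34, −6.06, −6.49 and −0.01 in CD90, and 3.20, 3.80, 3.64 and 3.42 in p75 cells. No TRKA array was well above background, and the p75 arrays lay far above every other array. Itga7 was at least 794-fold lower in TRKA than in p75 cells (fitted adjusted p = 2.25e-05), the means being −6.40 and 3.52. For such a bound, arrays of the dim group are set at the probe's own signal or at a floor, whichever is higher. The floor is the dimmest signal on that array that still counted as well above background. The bound compares group means and takes no account of their spread.

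Itga7 was also lower in TRKA-TGF (difference −5.99, SE 1.19, adjusted p = 0.00293) and in CD90 cells (−7.74, adjusted p = 0.000784) than in p75 cells. Itga7 was the one member called between TRKA-TGF and TRKA cells, at least 12.5-fold higher in TRKA-TGF cells (fitted difference 3.93, SE 1.19, adjusted p = 0.0264). All 4 TRKA-TGF arrays lay above all 4 TRKA arrays. The call was lost without TRKA-TGF replicate 2 (3.51, adjusted p = 0.0756), TRKA-TGF replicate 3 (3.30, adjusted p = 0.0812) or TRKA replicate 4 (3.71, adjusted p = 0.0568). It was also lost after quantile normalization (2.56, adjusted p = 0.148) and normexp correction (1.54, adjusted p = 0.162). The 2 populations lay on different slides. TRKA-TGF and CD90 cells were not called apart (1.76, adjusted p = 0.419), but were without CD90 replicate 4, the array at −0.01 (3.16, adjusted p = 0.0246).

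Itga6 encodes alpha6, which pairs with beta1 or beta4. It read −0.96, 0.69, −1.21 and −0.51 in TRKA-TGF, −2.15, −6.45, 0.67 and −7.13 in TRKA, −5.74, −6.70, −3.83 and −7.71 in CD90, and 3.07, 2.56, 2.52 and 1.91 in p75 cells. It was well above background on all TRKA-TGF and p75 arrays but on 2 of 4 TRKA and 2 of 4 CD90 arrays, and the TRKA arrays reached from the background to above the TRKA-TGF mean. Itga6 was lower in TRKA (difference −6.28, SE 1.39, adjusted p = 0.00295) and in CD90 cells (−8.51, adjusted p = 0.00129) than in p75 cells. It was 5.50 higher in TRKA-TGF than in CD90 cells (adjusted p = 0.0154), the one member called higher in that comparison. TRKA-TGF versus p75 gave −3.01 (95% interval −6.01 to −0.02, adjusted p = 0.194) although their arrays did not overlap. With only these 2 populations in the fit, the same difference was called (adjusted p = 0.00304), as it was after normexp correction (−2.93, adjusted p = 0.0122). TRKA-TGF versus TRKA gave 3.27 (adjusted p = 0.103), and 4.74 with a call without TRKA replicate 3, the TRKA array at 0.67 (adjusted p = 0.00689).

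Itgb4 encodes beta4, which pairs with alpha6 alone and is the beta chain of the hemidesmosome integrin. It read −1.42, −5.30, −3.79 and −1.26 in TRKA-TGF, −7.77, 2.27, −7.15 and −6.08 in TRKA, −6.16, −6.01, −1.50 and −4.89 in CD90, and 1.21, −0.87, 0.41 and 0.09 in p75 cells. The highest Itgb4 level of all 16 arrays was TRKA replicate 2, while the other 3 TRKA arrays were not well above background. No comparison was called, the nearest being TRKA versus p75 (−4.90, SE 1.87, adjusted p = 0.0554). That difference was called after quantile normalization (adjusted p = 0.0469), with the authors' deposited values (0.0470) and with a mean-variance trend (0.0496). It stayed without a call in 22 of 26 alternative settings. CD90 versus p75 was called with only these 2 populations in the fit (adjusted p = 0.0332). Without TRKA replicate 2, Itgb4 was lower in TRKA than in p75 cells (−7.22, adjusted p = 0.000429), lower in CD90 than in p75 cells (−4.85, adjusted p = 0.0148) and higher in TRKA-TGF than in TRKA cells (4.06, adjusted p = 0.0233). All 12 glia markers, the sort gene Ngfr among them, were lower in TRKA-TGF, TRKA and CD90 cells than in p75 cells. Their part in the laminin receptor results was not tested.

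Among the receptors of RGD ligands, Itga5 encodes alpha5, whose pair with beta1 binds fibronectin. It read 0.91, 1.13, −0.25 and −0.85 in TRKA-TGF, 1.57, 0.44, 1.33 and −6.58 in TRKA, 1.67, 1.20, 0.74 and 0.73 in CD90, and −0.66, 0.48, 0.64 and −1.32 in p75 cells. One TRKA array, replicate 4, lay far below all others and was not well above background, and the populations overlapped on the remaining arrays except CD90 and p75. Itga5 was not called in any comparison, with differences of −1.89 to 1.30 and adjusted p of at least 0.318. Without TRKA replicate 4, TRKA versus p75 turned from −0.59 to 1.33 (adjusted p = 0.0944), TRKA versus CD90 gave 0.03 (adjusted p = 0.973) and TRKA-TGF versus TRKA gave −0.88 (adjusted p = 0.301), still with no call.

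Itga8 encodes alpha8, known from smooth muscle and other mesenchymal cells. The brighter of its 2 probes read −6.85, −7.07, −5.54 and −7.74 in TRKA-TGF, −7.49, −6.44, −4.34 and −5.49 in TRKA, 1.16, 1.68, 1.40 and 1.40 in CD90, and 0.21, −7.02, −2.76 and −7.81 in p75 cells. All 4 CD90 arrays lay above every other array, and the p75 arrays spread from near the array's 75th percentile to background. The dimmer probe, with 10 spots an array against 2, read −7.56, −7.73, −7.87 and −8.14 in TRKA-TGF, −7.74, −7.48, −6.87 and −7.52 in TRKA, 1.37, 1.42, 1.55 and 1.21 in CD90, and −2.27, −1.99, −3.84 and −1.95 in p75 cells. On that probe the p75 arrays lay between the CD90 arrays and those of both TRKA populations, with replicate 3 below the other 3, and no array of either TRKA population was well above background. The brighter probe was well above background on 1 of 4 TRKA-TGF, 2 of 4 TRKA, all CD90 and 2 of 4 p75 arrays.

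With the brighter Itga8 probe, the gene was lower in TRKA-TGF (difference −8.21, SE 1.38, adjusted p = 0.000857) and in TRKA (−7.35, adjusted p = 0.000832) than in CD90 cells. It was 5.75 higher in CD90 than in p75 cells (adjusted p = 0.0197). This call was lost without p75 replicate 2 (4.86, adjusted p = 0.0651), without p75 replicate 4 (4.60, adjusted p = 0.0559) and with only the 2 populations in the fit (adjusted p = 0.0907), whereas the dimmer probe gave 3.90 (SE 0.38, adjusted p = 1.24e-05, over all probes). TRKA versus p75 was −1.60 (adjusted p = 0.394) on the brighter probe, whereas on the dimmer one Itga8 was at least 12.4-fold lower in TRKA cells (fitted adjusted p = 3.34e-07), so the call there depended on the probe. TRKA-TGF versus p75 was −2.46 (adjusted p = 0.304) on the brighter probe and at least 14.8-fold lower in TRKA-TGF cells on the dimmer one (fitted adjusted p = 2.58e-07). All 10 fibroblast markers, the sort gene Thy1 among them, were lower in both TRKA populations than in CD90 cells. So were 7 of 8 smooth muscle markers in TRKA-TGF and 6 of 8 in TRKA cells. The part of these markers in the Itga8 result was not tested.

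**Figure D2:**
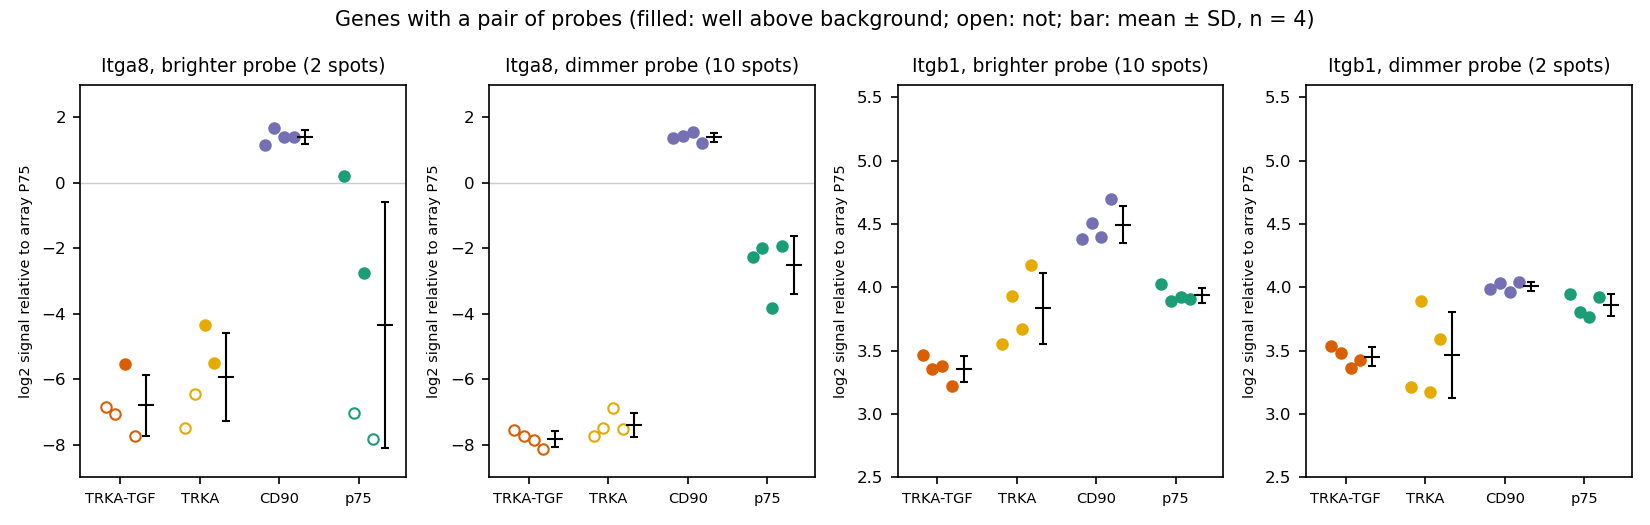
Levels of the brighter and dimmer probes of Itga8 and Itgb1 on every array, as log2 signal minus the array's 75th percentile, with a separate vertical scale for each gene (filled points well above background, open points not, bars mean ± SD, n = 4). Both Itga8 probes are highest in CD90 cells, and the p75 arrays span −3.84 to −1.95 on the dimmer probe, with replicate 3 the lowest, and −7.81 to 0.21 on the brighter one.

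Itgb8 encodes beta8, which pairs with alphav and binds latent TGF-beta. It read −7.54, −7.35, −8.07 and −7.73 in TRKA-TGF, −7.89, −6.85, −5.64 and −6.72 in TRKA, −3.49, −0.85, −3.39 and 0.01 in CD90, and 1.66, 2.17, 1.49 and 1.43 in p75 cells. No array of either TRKA population was well above background, all CD90 and p75 arrays were, and p75, CD90 and the TRKA populations did not overlap. Itgb8 was at least 272-fold lower in TRKA-TGF than in p75 cells (fitted adjusted p = 4.74e-07) and at least 219-fold lower in TRKA than in p75 cells (7.3e-07). Against CD90 cells it was at least 22.1-fold lower in TRKA-TGF (fitted adjusted p = 5.99e-05) and at least 17.8-fold lower in TRKA cells (fitted adjusted p = 0.000106). CD90 cells lay below p75 cells (difference −3.62, SE 0.70, adjusted p = 0.00475). No fold is given between the 2 TRKA populations, since both were below background. These Itgb8 calls held in all 26 alternative settings.

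Counted by comparison, the members divided unequally. In TRKA versus p75 cells, 4 of 8 members (Itga1, Itga6, Itga7 and Itgb8) were lower and none higher, where 35.7% of all genes were called, 18.8% higher and 16.9% lower. In TRKA versus CD90 cells, also 4 were lower and none higher, with 34.8% of all genes called, 18.2% higher and 16.6% lower. TRKA-TGF versus CD90 gave 1 higher (Itga6) and 4 lower, with 14.9% of all genes called, 7.72% higher and 7.18% lower. Lower in both TRKA populations than in CD90 cells were Itgb1, Itga1, Itgb8 and Itga8, and these comparisons share the CD90 arrays.

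In CD90 versus p75 cells, 1 member (Itga8) was higher and 4 (Itga1, Itga6, Itga7 and Itgb8) lower, where 7.23% of all genes were called, 3.68% higher and 3.55% lower. TRKA-TGF versus p75 gave 3 lower (Itga1, Itga7 and Itgb8) and none higher, where 15.1% of all genes were called, 7.96% higher and 7.14% lower. TRKA-TGF versus TRKA gave 1 higher (Itga7) and none lower, where 26.2% of all genes were called, 13.4% higher and 12.9% lower, so the members' share was below the background. The median difference of the 8 members was −4.85 in TRKA versus p75, −0.99 in TRKA-TGF versus CD90, −2.03 in TRKA versus CD90, 0.88 in TRKA-TGF versus TRKA, −3.08 in TRKA-TGF versus p75 and −3.05 in CD90 versus p75 cells. The medians over all genes lay between −0.09 and 0.19. In CD90 versus p75 cells the arrays of the 2 populations did not overlap for any of the 8 members, including Itga5, Itgb1 and Itgb4, which were not called, and 18.9% of all genes tested had no overlap there.

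**Figure D3:**
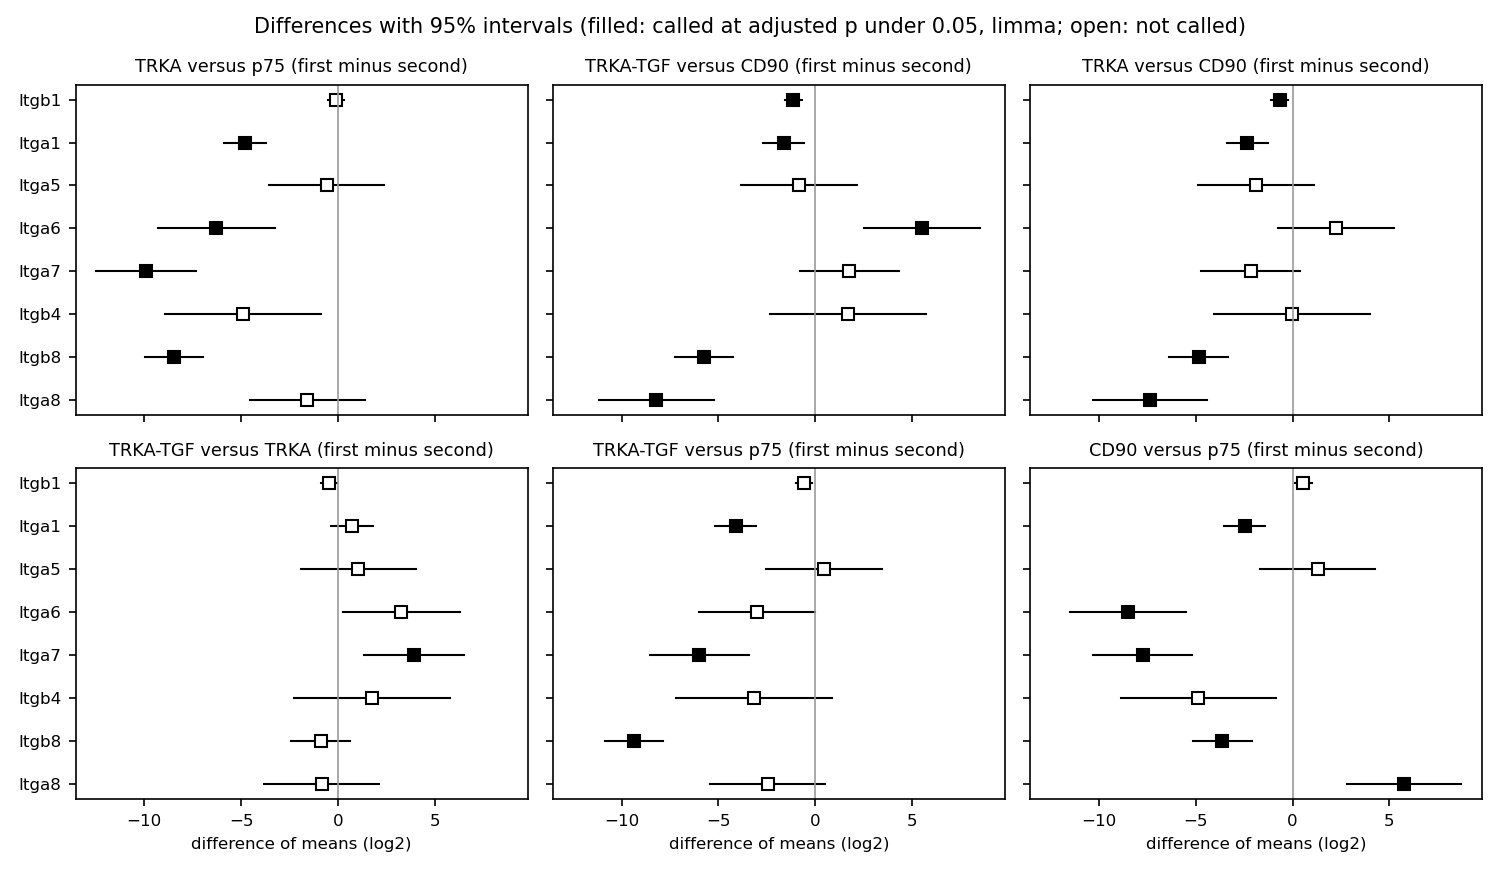
Difference of group means (log2, first population minus second) with its 95% interval for the 8 measured integrins in each of the 6 comparisons, filled where called at adjusted p under 0.05. Itga7 in TRKA cells and Itgb8 in both TRKA populations were not well above background, so their points there are fitted values and not measured sizes. Called points lie left of 0 in every panel except Itga6 in TRKA-TGF versus CD90, Itga7 in TRKA-TGF versus TRKA and Itga8 in CD90 versus p75.

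Promoter sequence from RefSeq (GRCr8) was matched for 7 of the 10 members, and the 250 bases before the gene start are shown for a member highest in p75 cells (Itgb8), one highest in CD90 cells (Itga8) and the one bright on all arrays (Itgb1). Capitals mark matches, on either strand, to a GC box (GGGCGG) or to the SOX core motif ACAAAG. Matches to the TATA box (TATAAA), the SOX core ACAATG and the CArG box were searched too and had no match in these 3 windows. The matches do not overlap one another. Itgb8 and Itga8 lie on the minus strand and Itgb1 on the plus strand.
Itgb8 promoter, chr6:146351246-146351495: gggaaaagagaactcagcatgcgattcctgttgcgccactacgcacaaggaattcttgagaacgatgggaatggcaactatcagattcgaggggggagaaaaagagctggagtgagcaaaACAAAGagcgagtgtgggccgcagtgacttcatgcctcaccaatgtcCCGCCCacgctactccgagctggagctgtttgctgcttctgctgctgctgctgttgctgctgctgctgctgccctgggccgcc
Itga8 promoter, chr17:80410634-80410883: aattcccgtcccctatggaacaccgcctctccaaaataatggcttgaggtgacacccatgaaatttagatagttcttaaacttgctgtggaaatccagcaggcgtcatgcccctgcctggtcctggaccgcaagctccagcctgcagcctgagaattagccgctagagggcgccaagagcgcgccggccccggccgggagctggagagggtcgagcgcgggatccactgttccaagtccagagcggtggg
Itgb1 promoter, chr19:73602027-73602276: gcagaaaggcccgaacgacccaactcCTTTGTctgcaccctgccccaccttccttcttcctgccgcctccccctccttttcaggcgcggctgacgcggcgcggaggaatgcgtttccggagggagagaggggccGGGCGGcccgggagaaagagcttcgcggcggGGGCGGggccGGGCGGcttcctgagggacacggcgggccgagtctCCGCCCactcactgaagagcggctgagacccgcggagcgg

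Itgb1 held 4 GC boxes and Itgb8 held 1, and each held 1 ACAAAG, whereas Itga8 held no match. Over 33469 rat promoter windows of the same length, 30.5% held a GC box, 16.3% ACAAAG, 12.9% TATAAA, 11.1% ACAATG and 1.5% a CArG box. G and C made up 71.2% of the Itgb1 window, 59.6% of the Itga8 window and 56.4% of the Itgb8 window, against a median of 51.2%. A match describes these letters only, and no motif was set against expression.

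Of the other integrin subunits, 13 were tested. Itgb2, the beta chain of leukocyte integrins, was not well above background on p75 arrays and was at least 273-fold higher in TRKA-TGF (fitted adjusted p = 9.59e-09), at least 405-fold higher in TRKA (fitted adjusted p = 3.01e-09) and at least 10.3-fold higher in CD90 cells (fitted adjusted p = 2e-05). Itgam, its alphaM partner on myeloid cells, averaged 4.33 in TRKA-TGF, 4.19 in TRKA, 0.84 in CD90 and −2.20 in p75 cells, and was higher in TRKA than in p75 cells by 6.40 (adjusted p = 8.11e-06). Itga4, the alpha4 chain that binds fibronectin and VCAM1, was 5.24 higher in TRKA-TGF than in TRKA cells (adjusted p = 0.00144), and Itgax, the alphaX chain of dendritic cells and macrophages, 4.66 higher (adjusted p = 0.000694). Of the 4 TRKA arrays, 3 read Itga4 and 1 read Itgax well above background. Itgb5, which pairs with alphav, was lower in TRKA-TGF than in TRKA cells (−1.10, adjusted p = 0.0116). Against p75 cells, Itgb5 was higher in TRKA (3.14, adjusted p = 1.64e-06) and in CD90 cells (2.53, adjusted p = 5.18e-05). The collagen-binding Itga11 averaged −4.81 in TRKA-TGF, −6.33 in TRKA, 3.47 in CD90 and −2.99 in p75 cells, and was 6.46 higher in CD90 than in p75 cells (adjusted p = 0.0101), with 3 of 4 p75 arrays well above background. The counts of higher and lower calls were 3 and 2 in TRKA versus p75, 4 and 2 in TRKA-TGF versus CD90, 2 and 2 in TRKA versus CD90, 2 and 1 in TRKA-TGF versus TRKA, 4 and 1 in TRKA-TGF versus p75, and 4 and 0 in CD90 versus p75. In that order, 35.7, 14.9, 34.8, 26.2, 15.1 and 7.23% of all genes were called. Macrophage markers were higher than in p75 cells for 11 of 12 in TRKA-TGF and 12 of 12 in TRKA cells. Their part in these results was not tested.

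Integrin adaptors and kinases link the cytoplasmic tails to actin, and 23 of 24 listed were tested. In TRKA versus p75 cells, 5 were higher and 9 lower, with a list median of −0.92 against −0.01 over all genes. Of all genes, 35.7% were called there. Fermt2 encodes kindlin-2, the integrin activator of most adherent cells, and was lower in TRKA than in p75 cells (difference −9.28, SE 1.31, adjusted p = 8.85e-05). Parva, a partner of integrin-linked kinase, was at least 133-fold lower in TRKA than in p75 cells (fitted adjusted p = 0.000227), and Lims2, of the same complex, was lower too (−8.93, adjusted p = 6.89e-07). Fermt2 and Lims2 were each well above background on 1 of 4 TRKA arrays. Parvg, the parvin of blood cells, was higher in TRKA than in p75 cells (fitted adjusted p = 0.000737), its brighter probe being well above background on all TRKA arrays and no p75 array, at least 69.4-fold apart, and its other probe on 1 p75 array. Fermt3, the kindlin-3 gene of blood cells, averaged 4.78 in TRKA-TGF, 4.10 in TRKA, −0.02 in CD90 and −1.37 in p75 cells. Fermt3 was higher than in p75 cells by 6.15 in TRKA-TGF (adjusted p = 8.59e-05) and by 5.47 in TRKA cells (adjusted p = 0.000107).

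Between TRKA-TGF and TRKA cells, 5 adaptors and kinases were higher and 4 lower, where 26.2% of all genes were called. Tns1, tensin-1, well above background on 2 of 4 TRKA arrays, was 5.04 higher (adjusted p = 0.000571) and Ptk2b, the kinase PYK2, 4.54 higher in TRKA-TGF cells (adjusted p = 0.00137). Pxn, paxillin, was lower in TRKA-TGF cells (−2.02, adjusted p = 6.7e-05), as was Sharpin, an integrin inhibitor (−1.96, adjusted p = 0.00244). In CD90 versus p75 cells, 3 were higher and 3 lower, among them Tns2 (3.15, adjusted p = 0.00011), the actin crosslinker Actn1 (2.49, adjusted p = 1.51e-05), Pxn (−1.94, adjusted p = 0.000196) and Lims2 (−3.16, adjusted p = 0.0169). The counts were 5 and 8 in TRKA-TGF versus CD90, 5 and 10 in TRKA versus CD90, and 4 and 6 in TRKA-TGF versus p75. Of all genes, 14.9, 34.8 and 15.1% were called in that order, and 7.23% in CD90 versus p75.

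**Figure D4:**
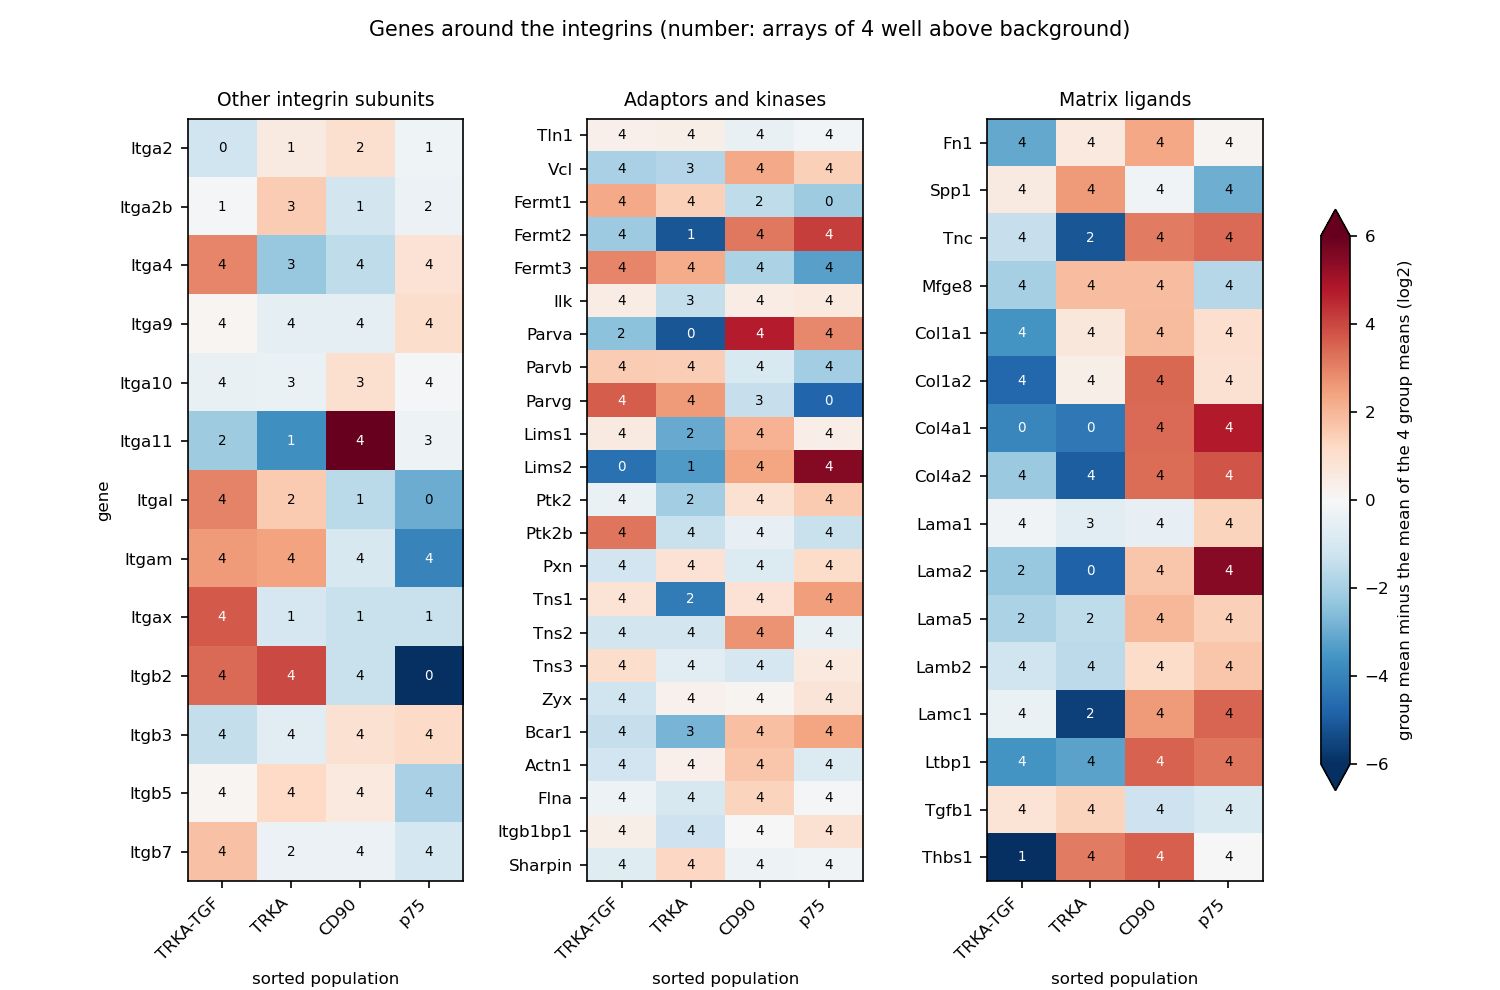
Group means of other integrin subunits, adaptors and kinases, and matrix ligands (log2, each minus the mean of its 4 group means), for the genes tested, with the number of arrays of 4 on which the probe was well above background. Itgb2 and Parvg are low in p75 cells, Fermt2, Parva and Lims2 in both TRKA populations, and Thbs1 in TRKA-TGF cells.

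Of 22 matrix ligands listed, 16 were tested. The calls were 3 higher and 7 lower in TRKA versus p75, 1 and 9 in TRKA-TGF versus CD90, 2 and 10 in TRKA versus CD90, 2 and 6 in TRKA-TGF versus TRKA, 2 and 10 in TRKA-TGF versus p75, and 3 and 0 in CD90 versus p75. The list medians were −2.47, −4.23, −2.87, −0.37, −4.25 and 0.00 in that order, against −0.09 to 0.19 over all genes. Of all genes, 35.7, 14.9, 34.8, 26.2, 15.1 and 7.23% were called, again in that order. Among the laminin chains, Lama2 was at least 532-fold lower in TRKA than in p75 cells (fitted adjusted p = 3.61e-05) and Lamc1 was lower (difference −9.10, adjusted p = 3.38e-05). Lamc1 was 5.20 higher in TRKA-TGF than in TRKA cells (adjusted p = 0.00426), with 2 of 4 TRKA arrays well above background. The collagen IV chain Col4a2 averaged −1.25 in TRKA-TGF, −3.95 in TRKA, 4.33 in CD90 and 4.77 in p75 cells.

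Of the other matrix ligands, Thbs1, thrombospondin-1, averaged −5.56 in TRKA-TGF, 4.27 in TRKA, 4.73 in CD90 and 1.16 in p75 cells. It was lower in TRKA-TGF than in TRKA cells (difference −9.84, SE 1.31, adjusted p = 0.000104), with 1 of 4 TRKA-TGF arrays well above background. In the same comparison Mfge8, a bridging ligand of alphav integrins (−3.85, adjusted p = 6.3e-06), and Col1a1, a chain of collagen I (−4.26, adjusted p = 3.46e-07), were lower. In CD90 versus p75 cells the 3 ligands called were Mfge8 (3.55, adjusted p = 2.25e-05), osteopontin's gene Spp1 (2.71, adjusted p = 1.14e-05) and Fn1, the fibronectin gene (2.15, adjusted p = 0.0296). Under normexp correction that comparison gave 5 higher and 2 lower, where 9.67% of all genes were called.

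Among 7 tested hemidesmosome components and alpha6 partners, the calls fell on Cd9, Cd151 and Dst. The tetraspanin Cd9 averaged 3.20 ± 0.16 in TRKA-TGF, −5.99 ± 1.73 in TRKA, 2.34 ± 0.04 in CD90 and 4.30 ± 0.08 in p75 cells (SD, n = 4 each), well above background on 2 of the 4 TRKA arrays and on all others. Cd9 was 9.19 higher in TRKA-TGF than in TRKA cells (SE 0.60, adjusted p = 2.31e-07) and lower in TRKA than in p75 cells (−10.29, adjusted p = 2.23e-08). Cd151, the tetraspanin bound most tightly to laminin receptors, was lower in TRKA than in p75 cells (−5.51, SE 1.78, adjusted p = 0.0269) with 2 of 4 TRKA arrays well above background, and Dst, the hemidesmosome linker dystonin, was lower in TRKA-TGF than in p75 cells (−1.24, adjusted p = 0.0135). No gene of this list was called in TRKA-TGF versus CD90 or in CD90 versus p75 under percentile scaling. There 14.9 and 7.23% of all genes were called. Normexp correction gave 1 higher in TRKA-TGF than in CD90 cells and 2 lower in CD90 than in p75 cells. It called 16.6 and 9.67% of all genes.

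The genes most like each member were ranked by the root mean square difference over the 16 arrays, after centring each gene on its own mean, among 14110 tested genes with a current symbol. This is a description of arrays that share population, slide and brightness. Among the 3 genes nearest to Itga7 were Peli2 (1.67) and Tspan7 (1.71). Itgb8 was nearest to Fstl3 (0.93), with Apod (1.03) also among its 3 nearest, and Itga1 was nearest to Sorbs2 (0.63), Nkd2 (0.75) and Ddah1 (0.75). Itga8 was nearest to Srpx2 (1.02), Nav3 (1.27) and Prss35 (1.28). Itga6 had no gene closer than Unc13b (1.96), and Itgb4 none closer than Slc26a2 (1.40). Itgb1 varied least over the arrays (SD 0.44) and lay within 0.27 of Hmgb2, and Itga5 within 0.87 of Pdlim7.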

How the data were processed

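RNA was amplified as cDNA by global PCR and hybridised with Cy3, per the labels' protocols, which can widen differences of scarce transcripts. The deposited scanner files hold background-subtracted spot intensity, per the file headers (Feature Extraction 10.7.3.1, and 10.5 per the submitters' processing notes). A table of log2 values deposited by the authors, with scale and centring not stated in the labels or files, served as an alternative. It matched quantile-normalized log2 signals centred on each probe's median (lowest r = 0.999, column medians −0.03 to 0.19).

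Spots with an outlier flag (non-uniform or population) were dropped, spots of a probe were averaged, and the 75th percentile of each array was subtracted from its log2 values. Each array held 58717 spots and 4259 controls, with 0 saturated, and the number of arrays limits the precision. Probes well above background on at least 4 of 16 arrays were kept, and the brightest kept probe represented a gene. Names came from the GRCr8 gene table by accession (18355 probes), symbol (2758) or synonym (422), and 8832 kept the file's name. The tests used limma 3.58.1 (R 4.3.3), with 1 mean per group over all 16 arrays and 6 comparisons, after a check on simulated data. Named context genes are up to 4 per list and comparison with the largest differences among calls whose arrays do not overlap, from which the text takes a selection. The members and lists were chosen with earlier results of these data known. Some genes that meet the naming rules are not reported here.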

Additional observations from a re-analysis of the deposited data

Results flagged for a closer look

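Among 40 sets of 4 arrays (10 probes in 4 populations), 3 held an array set off from its group by more than Dixon's 95% critical value of 0.829, which chance alone passes in about 1 group of 20. Itga5 read −6.58 in TRKA replicate 4, where it was not well above background, against 0.44 to 1.57 on the other TRKA arrays. Itgb4 read 2.27 in TRKA replicate 2, against −7.77 to −6.08 on the other TRKA arrays. The dimmer Itga8 probe read −3.84 in p75 replicate 3, against −2.27 to −1.95 on the other p75 arrays. The first 2 lie in the population with the fewest spots above background, and the part of that in these values was not tested.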

How the results depend on the processing

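The count of members called was 1 in TRKA-TGF versus TRKA, and 0 under normexp correction, quantile normalization, the authors' deposited values or the replicate block, and 2 with a mean-variance trend. Of all genes, 26.2% were called in that comparison. The share was 25.9, 31.4, 31.5, 24.9 and 27.1% under these settings in turn. The member count was 3 in TRKA-TGF versus p75, where 15.1% of all genes were called. It was 5 under normexp correction (18% of all genes) or with only the 2 groups compared (21.6%). Quantile normalization and the authors' deposited values each gave 6 in TRKA versus p75, against 4, and 6 in CD90 versus p75, against 5, and 4 in TRKA-TGF versus p75. Quantile normalization called 41.7, 8.34 and 17.1% of all genes in these comparisons, against 35.7, 7.23 and 15.1%. With the deposited values the shares were 41.8, 8.35 and 17.1%. The cause was not tested. Leaving out 1 array gave 4 to 6 calls in CD90 versus p75, where 5.79 to 8.02% of all genes were called. It gave 3 to 4 in TRKA versus CD90 (30.5 to 35.8%) and 4 to 5 in TRKA versus p75 (30.5 to 37.2%). TRKA-TGF versus CD90 had 4 to 6 (11.8 to 16.4%) and TRKA-TGF versus TRKA 0 to 2 (21 to 28.3%). TRKA-TGF versus p75 had 3 in each case (12.4 to 16.7%). For the 22 called differences of single members, 337 leave-one-out values kept the call and 15 lost it, and of the 26 not called, 411 values stayed so and 5 gained a call. Under the other settings 207 kept the call and 13 lost it, while 239 stayed without one and 21 gained one, and no called difference changed its sign (16 values of 7 results that were not called did). The second probes of Itga8 and Itgb1 were an alternative chosen after seeing the data. Equal replicate numbers did not deviate together (r = −0.03 to 0.04 over 24 pairs), and with the replicate block Itga1 lost its call in TRKA-TGF versus CD90 (adjusted p = 0.0504) and Itga7 in TRKA-TGF versus TRKA (adjusted p = 0.0555). Slide as a block was not run, since no slide effect can be separated from the populations. The share of calls that were higher was 52.7% in TRKA versus p75 and 66.9% under normexp, 52.4% and 62.7% in TRKA versus CD90, and 50.9% in TRKA-TGF versus TRKA with 39.8% under quantile normalization and 38.8% under normexp. Levels near background, frequent in TRKA cells, limit the sizes given for Itga7, Itgb8, Itga6, Itga8 and the listed genes with few arrays above background, and with the offset of normexp correction large differences were smaller (Itgb8, TRKA versus p75, −5.23).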
